A study of Mus musculus with 2 samples.

Results

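The transcription factor AP-1 is built from a family of basic leucine zipper (bZIP) proteins, and the genes of 10 of them were examined here for open chromatin: Fos, Fosb, Fosl1, Fosl2, Jun, Junb, Jund, Atf3, Batf and Batf3. Every DNaseI-seq peak that overlapped the annotated body of 1 of these genes, or lay within 50 kb of it, was assigned to that gene. This took 56 of the 17784 distinct vehicle peaks and 70 of the 22600 distinct TGFβ 2 h peaks. One TGFβ 2 h peak lay in the windows of both Atf3 and Batf3 and was counted once in these totals.

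The peaks came from NMuMG, an established line of epithelial cells from normal mouse mammary gland. All cells went 6 h without serum and insulin and then received, for 2 h, either TGFβ1 at 5 ng/ml or only the BSA-containing carrier solution (vehicle). In DNaseI-seq, nuclei are cut lightly with DNaseI, short fragments are sequenced, and positions where fragments accumulate are called as peaks of accessible chromatin. There was 1 peak list per condition, so values could be set side by side but not tested, and how far replicate cultures differ is not known. A peak was called shared when it had at least 1 bp in common with a peak of the other list, and otherwise vehicle-only or TGFβ 2 h-only, a statement about peak calls that leaves signal below the calling threshold undescribed. A promoter peak reached within 1000 bp of any annotated transcript start, of whichever gene, and the others are called distal.

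Fos and Jun proteins bind DNA as dimers joined through their leucine zippers. Jun proteins can pair with each other, whereas Fos proteins need a Jun partner, and both kinds of dimer prefer the AP-1 site TGACTCA. Several of these genes are immediate early genes, switched on within minutes of a growth signal without new protein synthesis. At the Fos promoter, serum response factor binds the CArG box of the serum response element, and TGFβ signalling can reach these genes through MAP kinases and through SMAD proteins, which can act together with AP-1. Atf3 encodes a stress-induced bZIP protein that pairs with Jun proteins. Batf and Batf3 encode small bZIP proteins that are best known from lymphocytes and dendritic cells.

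The labelled cell type was checked by promoter peaks at marker genes. Of 8 epithelial markers, 4 had a peak at their own start in both lists (Cdh1, Krt8, Krt18 and Ocln), while Epcam, Esrp1, Cldn3 and Cldn4 had none in either. The immune markers Ptprc, Cd3e, Cd68 and Spi1 had no start peak in either list, and neither did any of 3 endothelial markers (Pecam1, Cdh5, Tek).

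The sequences that carry the main observations are given here, from the NCBIM37 (mm9) genome, each read 5′ to 3′ in the direction in which its gene is transcribed. Capitals mark exact matches, on either strand, to strings that were searched for, with the TATA string marked in start regions only. These were the AP-1 site TGACTCA, which reads as TGAGTCA on the other strand, the cyclic AMP response element (CRE) TGACGTCA, a CRE-like string TGACATCA, which reads as TGATGTCA on the other strand, the SMAD palindrome GTCTAGAC, the CArG box and the TATA string TATAAA, which reads as TTTATA on the other strand. A match describes the letters only and is not a mapped binding site. The first group shows the middle of the 3 TGFβ 2 h-only peaks upstream of Junb, the nearest such cluster to a start of a listed gene. The peak 2.5 kb upstream held 1 AP-1 site in the stretch shown, the one 7.1 kb upstream held 2, and the one 6.1 kb upstream held none of the searched strings.
Junb -2.5 kb (chr8:87505043-87505242, minus strand): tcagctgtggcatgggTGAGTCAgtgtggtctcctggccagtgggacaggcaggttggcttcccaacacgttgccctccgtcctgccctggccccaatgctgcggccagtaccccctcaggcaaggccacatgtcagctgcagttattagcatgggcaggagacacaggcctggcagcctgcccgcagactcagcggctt
Junb -6.1 kb (chr8:87508607-87508806, minus strand): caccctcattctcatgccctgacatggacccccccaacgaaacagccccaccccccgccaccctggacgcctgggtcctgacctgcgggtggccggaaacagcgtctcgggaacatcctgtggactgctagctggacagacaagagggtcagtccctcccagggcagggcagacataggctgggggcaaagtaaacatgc
Junb -7.1 kb (chr8:87509569-87509768, minus strand): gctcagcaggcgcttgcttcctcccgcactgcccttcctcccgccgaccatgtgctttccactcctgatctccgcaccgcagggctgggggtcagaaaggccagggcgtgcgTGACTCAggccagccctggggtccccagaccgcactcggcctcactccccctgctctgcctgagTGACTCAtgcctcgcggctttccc

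The second group comes from other TGFβ 2 h-only peaks, near Jund, Fosl2 and Fos. The Jund peak was, with the Junb peak 6.1 kb upstream, the only TGFβ 2 h-only peak of these genes at the score ceiling, the Fosl2 peak held both an AP-1 site and a CRE-like string, and the Fos peak held the SMAD palindrome.
Jund -15.3 kb (chr8:73206197-73206496, plus strand): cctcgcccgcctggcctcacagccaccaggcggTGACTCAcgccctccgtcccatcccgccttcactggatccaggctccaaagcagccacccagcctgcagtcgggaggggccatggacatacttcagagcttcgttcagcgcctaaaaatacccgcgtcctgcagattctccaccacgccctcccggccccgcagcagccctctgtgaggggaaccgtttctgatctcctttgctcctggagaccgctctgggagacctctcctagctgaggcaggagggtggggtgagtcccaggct
Fosl2 59.6 kb (chr5:32498334-32498533, plus strand): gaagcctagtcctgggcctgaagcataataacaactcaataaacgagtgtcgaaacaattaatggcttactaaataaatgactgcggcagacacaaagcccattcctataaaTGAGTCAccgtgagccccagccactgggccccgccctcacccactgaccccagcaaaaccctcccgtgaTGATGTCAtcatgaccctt
Fos -49.8 kb (chr12:86764940-86765139, plus strand): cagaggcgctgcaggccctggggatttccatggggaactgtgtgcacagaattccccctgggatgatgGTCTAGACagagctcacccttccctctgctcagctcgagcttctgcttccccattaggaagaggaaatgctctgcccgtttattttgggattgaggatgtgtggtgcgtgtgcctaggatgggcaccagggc

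The third group comes from shared peaks with a CArG box outside the start region, 1 downstream of Fos and 1 upstream of Junb. Both were at the score ceiling in both lists.
Fos 12.2 kb (chr12:86826915-86827114, plus strand): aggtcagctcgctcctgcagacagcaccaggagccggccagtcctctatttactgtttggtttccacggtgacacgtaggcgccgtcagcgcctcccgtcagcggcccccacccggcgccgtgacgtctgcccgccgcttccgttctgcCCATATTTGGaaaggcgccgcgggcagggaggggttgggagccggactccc
Junb -1.4 kb (chr8:87503930-87504129, minus strand): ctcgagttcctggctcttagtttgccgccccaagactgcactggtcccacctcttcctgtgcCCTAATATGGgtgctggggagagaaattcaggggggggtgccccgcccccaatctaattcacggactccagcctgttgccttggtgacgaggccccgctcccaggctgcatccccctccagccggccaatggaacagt

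The last group shows stretches just upstream of the annotated starts of Fos, Fosb and Jun, all of which lay in shared peaks. Capitals mark the CArG box and the TATA string of Fos, the CArG box of Fosb and the CRE-like string of Jun.
Fos start region (chr12:86814520-86814819, plus strand): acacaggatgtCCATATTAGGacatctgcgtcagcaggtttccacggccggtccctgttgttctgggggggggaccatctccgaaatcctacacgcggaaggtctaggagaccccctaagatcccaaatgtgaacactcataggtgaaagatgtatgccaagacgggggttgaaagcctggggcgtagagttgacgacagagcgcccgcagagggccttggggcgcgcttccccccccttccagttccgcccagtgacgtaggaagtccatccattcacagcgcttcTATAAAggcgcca
Fosb start region (chr7:19895585-19895684, minus strand): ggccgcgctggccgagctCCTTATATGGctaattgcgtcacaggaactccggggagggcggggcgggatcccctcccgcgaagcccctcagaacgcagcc
Jun start region (chr4:94718914-94719033, minus strand): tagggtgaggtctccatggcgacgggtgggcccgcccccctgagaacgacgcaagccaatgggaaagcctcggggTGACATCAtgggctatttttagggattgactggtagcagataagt

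Across the 10 genes, 9 had at least 1 TGFβ 2 h-only peak in their window, and Jun was the exception. Over all 22350 protein-coding genes the same was true of 40.5%. The number depended on the assignment: it was 5 of 10 with a window of 25 kb, where the share over protein-coding genes was 28.7%, and 4 of 10 when only peaks closest to the start of the listed gene were counted, where that share was 19.1%. Since a gene without open chromatin has little to share, the genes with a start peak in both lists are the closer background. A start peak here is one that reaches within 1000 bp of a transcript start of the gene itself. Such peaks were present in both lists for 8 of the 10 genes, against 43.8% of protein-coding genes, and in the TGFβ 2 h list alone for Batf3, against 2.46%. Batf had no start peak in either list. Among the 8 genes, 7 had at least 1 TGFβ 2 h-only peak, where 49.6% of the 9799 protein-coding genes with a start peak in both lists did. With the window of 25 kb it was 3 of the 8 against 35.5%, and with only the closest peaks 2 of the 8 against 22.9%, so in these settings the 8 genes were near the background. At least 1 vehicle-only peak lay near 3 of the 10 genes, against 25.9% of protein-coding genes, and near 2 of the 8, against 31.9%. At least 3 TGFβ 2 h-only peaks lay near 2 of the 8 (Junb and Jund), where the share over those genes was 9.22%. For 7 of the 8 the TGFβ 2 h peaks outnumbered the vehicle peaks, against 41.7%. The median over all 10 genes was 4.5 vehicle peaks, 6 TGFβ 2 h peaks and 1.5 TGFβ 2 h-only peaks, beside 2, 2 and 0 over all protein-coding genes. Over the protein-coding genes with a start peak in both lists, a background that Batf and Batf3 do not meet, it was 3, 4 and 0. In a bulk culture, a site open in more cells and a site more open in each cell cannot be told apart. The gene windows overlap other genes, so these are counts of peaks in a neighbourhood and not of peaks known to act on the listed gene.

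**Figure D1:**
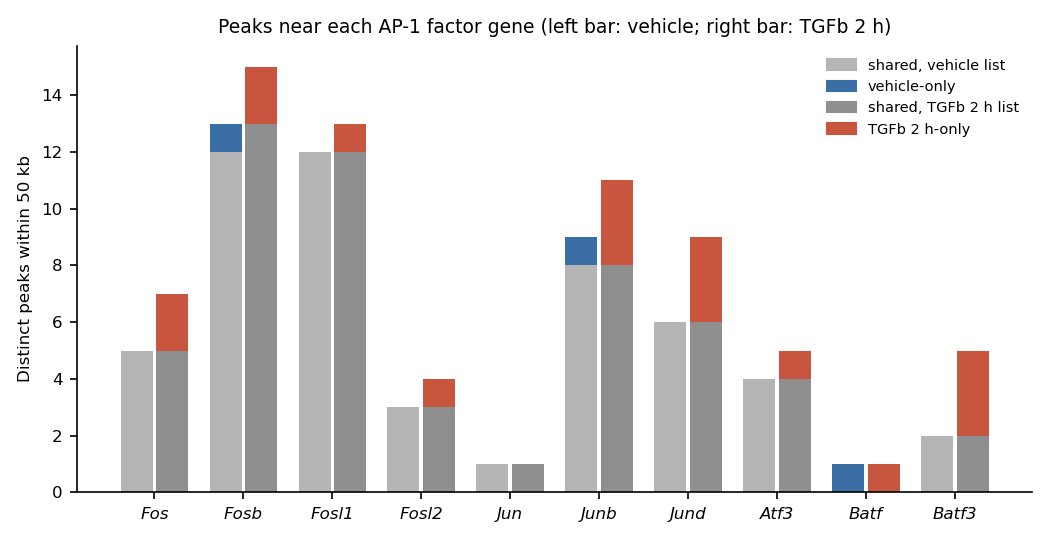
Number of distinct peaks in each gene's window (gene body and 50 kb either side) in the vehicle and TGFβ 2 h lists, by class. TGFβ 2 h peaks outnumbered vehicle peaks for 8 genes, were equal for Jun (1 and 1) and Batf (1 and 1), and were fewer for none.

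Most peaks near these genes were called in both lists, and most of the unshared ones were distal and from the TGFβ 2 h list. Of 70 TGFβ 2 h peaks, 16 were TGFβ 2 h-only (22.9%, Wilson 95% interval 14.6 to 34), and over the list 33.7% were. For distal peaks the share was 13 of 36 (36.1%, 22.5 to 52.4), against 55.3% of all distal TGFβ 2 h peaks. For promoter peaks it was 3 of 34 (8.82%, 3.05 to 23) against 10.1%. In the other direction, 3 of 56 vehicle peaks were vehicle-only (5.36%, 1.84 to 14.6), where 17.6% of all vehicle peaks were. These intervals cover the counting of peaks only, and neighbouring peaks are not independent. The whole-list share lay inside the first interval and outside those for distal and for vehicle-only peaks. Vehicle-only peaks numbered 6 of 56 (10.7%, 5 to 21.5) both with the longer list cut to the length of the shorter and with a reciprocal overlap of 50%, where the whole-list shares were 23.9% and 22.9%. The first order also depended on the setting: when each list was restricted to its upper-scoring peaks, from the median score up, 27.9% of the peaks near these genes and 25.2% of the list were TGFβ 2 h-only, and with lists of equal length the shares were 21.9% and 22.8%.

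**Figure D2:**
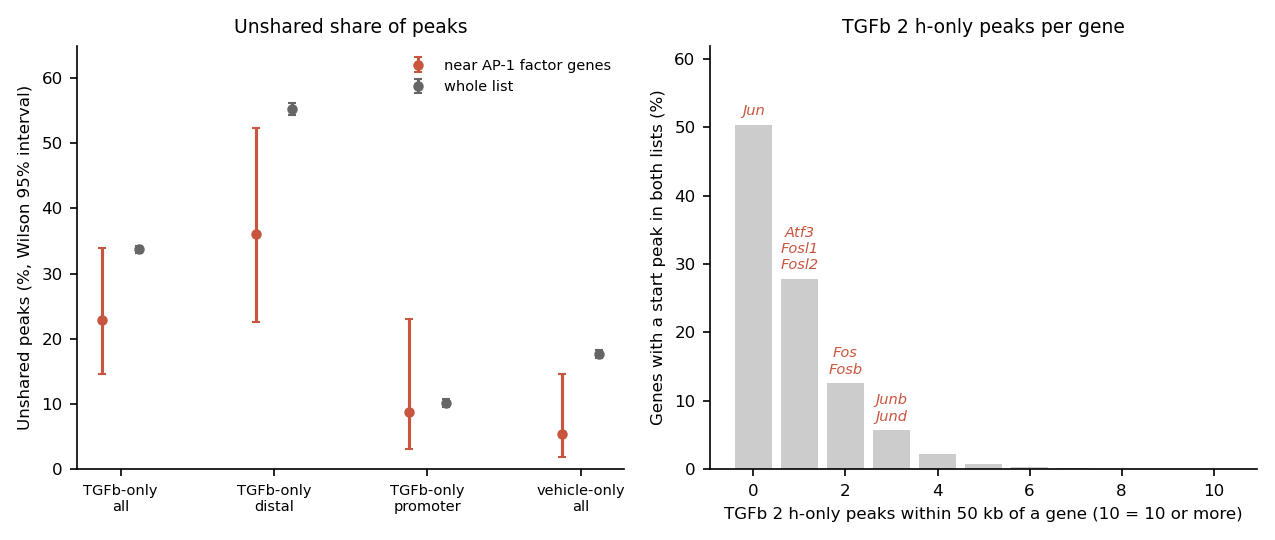
Left, percent of unshared peaks near the AP-1 factor genes and over the whole lists, with Wilson 95% intervals, and right, percent of the 9799 protein-coding genes with a start peak in both lists by their number of TGFβ 2 h-only peaks within 50 kb, the 8 AP-1 factor genes of that kind being named over their bars. The TGFβ 2 h-only share was 22.9% near these genes and 33.7% over the list, and Jun stood at 0 TGFβ 2 h-only peaks while Junb and Jund stood at 3.

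Fos, the best-studied partner of Jun proteins (ENSMUSG00000021250.7, chr12:86814840-86818223, plus strand), had 5 vehicle and 7 TGFβ 2 h peaks. No other protein-coding start lay in its window. Its start peak was 896 bp wide with vehicle and 853 bp wide with TGFβ, at the score ceiling of 1000 in both lists. The score is a whole number given by the authors that ranks peaks within their own list and stops at 1000, so peaks at the ceiling cannot be ranked among themselves. Where the scores of a shared peak are given for both lists, each states the standing of the peak in its own list, and a difference between them is no measure of a change in signal. The start region printed above held the CArG box 309 bp and the TATA string 33 bp upstream of the start. The CArG box was found in the 500 bp upstream of 2.71% of protein-coding genes and the TATA string in 24.6%.

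All 5 vehicle peaks of Fos were matched in the TGFβ 2 h list. The shared peak about 1.5 kb upstream was at the ceiling in both lists, as was the shared peak 12.2 kb downstream with the CArG box shown above. The shared peak about 43 kb upstream scored 576 with vehicle and 1000 with TGFβ, and the one 21.9 kb upstream scored 841 and 978. In addition, 2 distal peaks were called only after TGFβ. The first of these, chr12:86764819-86765260, lay 49.8 kb upstream, scored 690 and was 6001 bp from the nearest vehicle peak. It held the SMAD palindrome near its midpoint and an AP-1 site elsewhere in the peak. The second, chr12:86790828-86791204, lay 23.8 kb upstream, scored 657 and was 1517 bp from the nearest vehicle peak.

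Fosb, whose product resembles Fos (ENSMUSG00000003545.2, chr7:19888070-19895394, minus strand), had 13 vehicle and 15 TGFβ 2 h peaks, the most of the 10 genes. Its window holds 6 other protein-coding starts, and 7 of the TGFβ 2 h peaks were promoter peaks. The start peak measured 700 bp with vehicle and 701 bp with TGFβ, at the ceiling in both. Its CArG box lay 272 bp upstream of the start. A single vehicle peak 37.9 kb downstream, over the start of Vasp, was matched by 2 TGFβ 2 h peaks, which adds 1 to the TGFβ 2 h number without a new site.

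Shared Fosb peaks with an AP-1 site within 100 bp of the TGFβ 2 h midpoint lay 17.3 kb and 23.0 kb upstream, both at the ceiling in both lists. TGFβ 2 h-only were a peak in an intron of Vasp 43.5 kb downstream (chr7:19851662-19852142, score 594), with a CRE-like string, and a peak at the promoter of Ercc1 34.6 kb upstream (chr7:19929818-19930117, score 730). The Ercc1 peak held 2 AP-1 sites and was only 174 bp from the nearest vehicle peak. A vehicle-only peak at the promoter of Cd3eap (chr7:19944752-19945115, score 842) was likewise only 169 bp from a TGFβ 2 h peak. Allowing a gap of that size would make both shared.

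Fosl1 encodes Fra-1, a Fos-family protein without the transactivation domain of Fos (ENSMUSG00000024912.5, chr19:5447703-5455945, plus strand). It had 12 vehicle and 13 TGFβ 2 h peaks in a dense neighbourhood with 9 other protein-coding starts, and 10 of the 13 were promoter peaks. The main start peak was 935 bp wide with vehicle and 868 bp with TGFβ, at the ceiling in both, and held an AP-1 site within 100 bp of its midpoint. A second start peak about 1 kb into the gene was narrower with TGFβ, at 389 bp against 577 bp, and its score was 906 with TGFβ against 1000 with vehicle. The shared distal peaks 17.7 kb and 14.1 kb upstream held 1 and 2 AP-1 sites near the midpoint. The latter scored 931 with vehicle and 613 with TGFβ. Its only unshared peak, chr19:5415586-5415953, was TGFβ 2 h-only with a score of 686 and lay in a coding exon of 4930481A15Rik, 31.9 kb upstream.

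Fosl2 encodes Fra-2 (ENSMUSG00000029135.9, chr5:32438845-32460204, plus strand) and had 3 vehicle and 4 TGFβ 2 h peaks. Its start peak was 1226 bp wide with vehicle and 1643 bp wide with TGFβ, a ratio of 1.34 that was the highest among the pairs of these genes. The vehicle peak ended 281 bp before the start, whereas the TGFβ 2 h peak ran 120 bp past it. The TGFβ 2 h peak held an AP-1 site within 100 bp of its midpoint. The other 3 TGFβ 2 h peaks lay beyond the end of the gene. A shared peak 55.8 kb from the start scored 887 with vehicle and 1000 with TGFβ and held an AP-1 site. The TGFβ 2 h-only peak printed above (chr5:32498143-32498725, score 796) lay between that peak and another shared one at 61.5 kb, 1243 bp from the nearest vehicle peak.

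**Figure D3:**
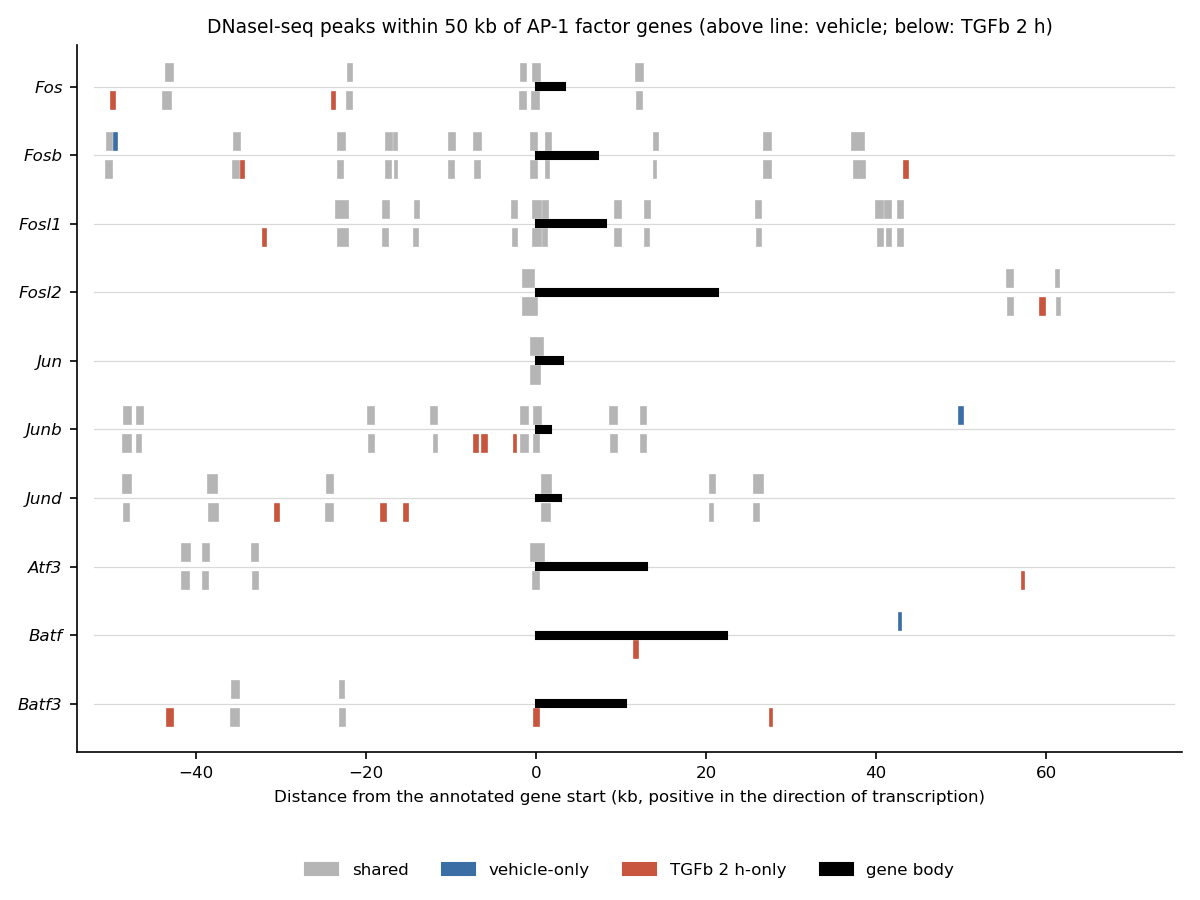
Positions of all assigned peaks relative to the annotated gene start in kb, vehicle above and TGFβ 2 h below each line, with peaks drawn at their true width and a thin outline. TGFβ 2 h-only peaks lay upstream of Junb at 2.5, 6.1 and 7.1 kb and upstream of Jund at 15.3, 18.0 and 30.5 kb, while Jun had only its start peak.

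Jun, the founding Jun-family gene (ENSMUSG00000052684.3, chr4:94715725-94718913, minus strand), had 1 peak in each list. That peak lay over its start, measured 1337 bp with vehicle and 1050 bp with TGFβ, and was at the ceiling in both. No other protein-coding start lay in the window. The CRE-like string lay 45 bp upstream of the start, where 3.86% of protein-coding genes had 1 in the 500 bp upstream. Jun alone had no unshared peak in either list.

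Junb encodes a Jun protein that is a weaker activator than Jun at many sites (ENSMUSG00000052837.4, chr8:87500811-87502617, minus strand). It had 9 vehicle and 11 TGFβ 2 h peaks, with 8 other protein-coding starts in the window. The start peak measured 863 bp with vehicle and 667 bp with TGFβ, and the shared peak 1.4 kb upstream measured 894 bp and 808 bp. All 4 were at the ceiling. The upstream peak came within 934 bp of the start with vehicle and within 1009 bp with TGFβ, so it counted as promoter in the first list and distal in the second. A TATA string lay 30 bp upstream of the start.

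Junb had 3 TGFβ 2 h-only peaks, all upstream of its start, with no vehicle peak between them. The nearest, chr8:87505010-87505276, was 267 bp wide and scored 804, and it was 565 bp from the shared peak 1.4 kb upstream. The next, chr8:87508436-87508978, reached the ceiling of 1000 at 6.1 kb upstream. The third, chr8:87509400-87509937, scored 890 at 7.1 kb upstream and held 3 AP-1 sites in the whole peak. The 2 farther peaks were nearer to the start of Hook2 than to that of Junb, so the assignment rests on the window. Farther upstream, a shared peak in Hook2 19.4 kb away scored 774 with vehicle and 1000 with TGFβ, and a shared promoter peak 46.7 kb away held an AP-1 site. The vehicle-only peak of this window (chr8:87452379-87452842, score 734) lay in a coding exon of Mast1, 50.0 kb downstream.

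Jund, the Jun family member least dependent on growth signals (ENSMUSG00000071076.4, chr8:73221638-73224515, plus strand), had 6 vehicle and 9 TGFβ 2 h peaks with 4 other protein-coding starts. Its start peak, at about 1.2 kb past the annotated gene start, measured 1160 bp with vehicle and 995 bp with TGFβ and was at the ceiling in both. It held a CRE, as did 4.86% of all promoter peaks of the TGFβ 2 h list when the whole peak was searched. The 6 vehicle peaks were all matched. The matched peak about 48 kb upstream scored 1000 with vehicle and 867 with TGFβ, and the one 20.7 kb downstream scored 928 and 622.

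The 3 TGFβ 2 h-only peaks of Jund lay upstream and between 5622 and 8336 bp from any vehicle peak. That at 15.3 kb (chr8:73206084-73206610) reached the ceiling, that at 18.0 kb (chr8:73203370-73203978) scored 727, and that at 30.5 kb (chr8:73190930-73191349) scored 776. The first 2 each held 1 AP-1 site within the peak. All 3 were nearest to the start of Lsm4, a gene of the RNA-processing machinery. Junb and Jund together held 6 of the 16 TGFβ 2 h-only peaks, and both of those at the ceiling.

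Atf3 (ENSMUSG00000026628.8, chr1:192994175-193007219, minus strand) had 4 vehicle and 5 TGFβ 2 h peaks. Its start peak was 1549 bp wide with vehicle and 799 bp with TGFβ, a ratio of 0.516, and was at the ceiling in both. The shared peaks 33.0 kb and 38.9 kb upstream each held 1 AP-1 site near the midpoint. The latter scored 763 with vehicle and 919 with TGFβ. Atf3's only TGFβ 2 h-only peak, chr1:192949764-192950080 (score 727), lay 57.3 kb from the start of Atf3 and 27.6 kb from that of Batf3, between the genes.

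Batf (ENSMUSG00000034266.5, chr12:87027619-87050037, plus strand) had 1 peak in each list and neither was shared. The TGFβ 2 h-only peak (chr12:87039090-87039548) lay in an intron of Batf, 11.7 kb past the start, with a score of 960. The vehicle-only peak (chr12:87070312-87070591, score 783) lay 42.8 kb past the start. The gap between a peak and the nearest one of the other list was 30763 bp. Batf was the only listed gene with no shared peak, and it had no start peak.

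Batf3 (ENSMUSG00000026630.4, chr1:192922293-192932822, plus strand) had 2 vehicle and 5 TGFβ 2 h peaks, a difference of 3 that was matched by Jund alone. Both vehicle peaks lay 22.8 kb or more upstream and were shared. The start of Batf3 was covered only in the TGFβ 2 h list, by a peak of 606 bp with a score of 569 (chr1:192922013-192922618), and the nearest vehicle peak was 22279 bp away. This was the lowest score of the 16 TGFβ 2 h-only peaks. Of the other 2 TGFβ 2 h-only peaks, chr1:192878816-192879611 lay 43.1 kb upstream over a coding exon of Tatdn3, scored 715 and held 2 AP-1 sites, and the other was the peak 27.6 kb downstream that also lay in the window of Atf3.

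**Figure D4:**
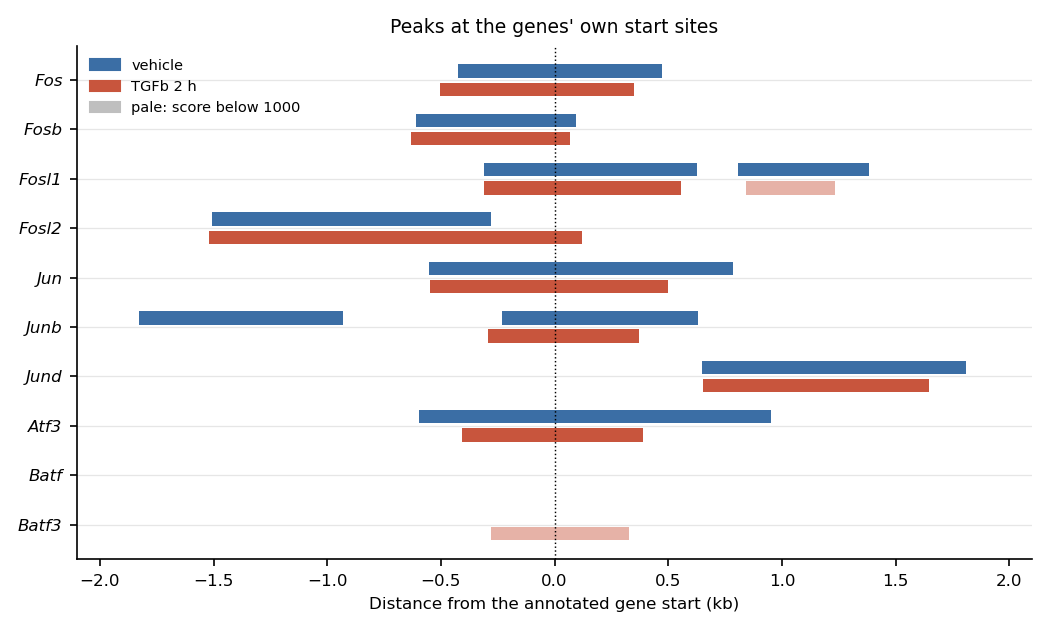
Extent of the peaks within 1000 bp of each gene's own starts, in kb from the annotated gene start, for the vehicle and TGFβ 2 h lists, with scores below 1000 drawn pale. The Fosl2 peak was 1226 bp wide with vehicle and 1643 bp with TGFβ, the Atf3 peak 1549 and 799 bp, Batf3 had a start peak in the TGFβ 2 h list only, and the Junb peak 1.4 kb upstream reached within 1000 bp only in the vehicle list.

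Apart from the unshared peaks, the peaks matched between the lists differed in width. Of 52 one-to-one pairs near these genes, the TGFβ 2 h peak was narrower in 41 (78.8%, Wilson 95% interval 66 to 87.8), against 70.9% of 13978 such pairs over the lists. The width ratio of TGFβ 2 h over vehicle ran from 0.471 to 1.34, with a median of 0.861, and 0.906 over the lists. Promoter pairs were narrower in 23 of 29 and distal pairs in 18 of 23. At the score ceiling in the TGFβ 2 h list only were 7 pairs (13.5%), where the share over all pairs was 9.73%, and at the ceiling in the vehicle list only were 2 (3.85%), where it was 9.25%. The 7 were near Fos, Fosb (3), Fosl1, Fosl2 and Junb. The lists carry no read depth, but per the reporting summary of the study the vehicle library was sequenced more deeply. The part of depth in peak width, in scores and in which peaks were called was not tested.

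**Figure D5:**
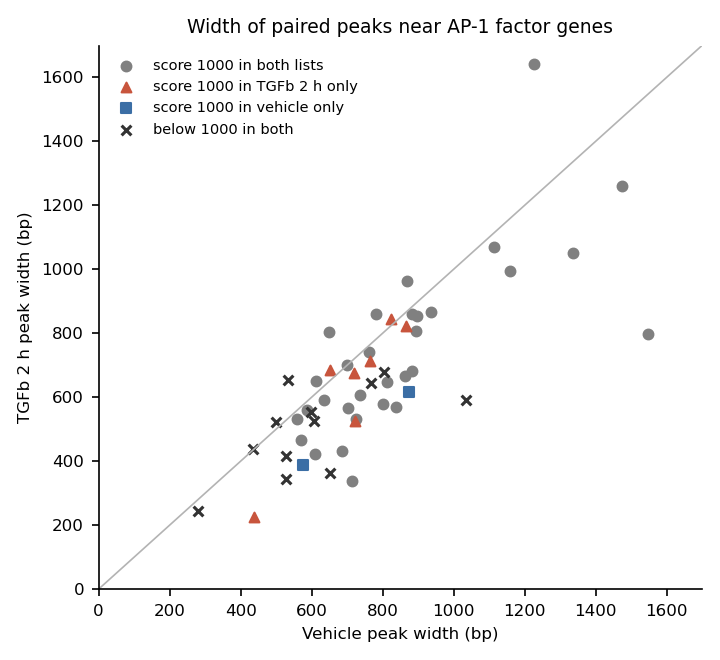
Width in bp of the vehicle (horizontal) and TGFβ 2 h (vertical) peak of each one-to-one pair near the AP-1 factor genes, with symbols for the lists in which the pair scored 1000 and a line of equal width. Points under the line are the 41 of 52 pairs narrower with TGFβ, with the Fosl2 start peak above it at 1226 and 1643 bp and the Atf3 start peak below it at 1549 and 799 bp.

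Scores of the 16 TGFβ 2 h-only peaks ran from 569 to 1000 with a median of 728.5, and the median over all TGFβ 2 h-only peaks was 669. At the ceiling were 2 of the 16 (12.5%, 3.5 to 36), against 7.77% of all TGFβ 2 h-only peaks. Their median width was 470 bp, and 436 bp over the list.

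The AP-1 site was searched in the 200 bp around the peak midpoints, since these are the peaks near the genes whose products bind it. It was present in 3 of 13 distal TGFβ 2 h-only peaks (the Junb peaks at 2.5 and 7.1 kb upstream and the Fosl2 peak at 59.6 kb), 23.1% against 27.2% over the list. In shared distal peaks it was present in 7 of 23, 30.4% against 23.5%. Over the whole peak, 7 of the 13 distal TGFβ 2 h-only peaks held the site (53.8%), and 45.2% over the list, while 8 of the 23 shared distal peaks did (34.8%), and 44.3% over the list. For both classes, the order between the peaks near these genes and the list thus turned with the stretch searched. Promoter peaks held it within 100 bp of the midpoint in 3 of 34 (Fosl1, Fosl2 and the peak 46.7 kb upstream of Junb), 8.82% against 3.73%. No upstream region of 500 bp of any of the 10 genes held the AP-1 site, which 7.44% of protein-coding genes did.

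The CArG box was present near the midpoint of 2 of 23 shared distal peaks, the Fos peak at 12.2 kb and the Junb peak at 1.4 kb upstream, 8.7% against 0.988% over the list. That Junb peak ended 1009 bp from the start with TGFβ and was a promoter peak in the vehicle list. The CArG box was in 2 of 34 promoter peaks, the Fosb start and a peak at 41.5 kb in the window of Fosl1, 5.88% against 0.444%. It was in none of the 13 distal TGFβ 2 h-only peaks, where the list share was 0.92%. The SMAD palindrome was present near the midpoint of 1 of 13 distal TGFβ 2 h-only peaks, 7.69% against 0.675%. It was near the midpoint of none of the 23 shared distal peaks, against 0.285%. The shared Batf3 peak 22.8 kb upstream held it farther from the midpoint. The CRE-like string was present in 2 of 13 distal TGFβ 2 h-only peaks, at Fosl2 and at Vasp, 15.4% against 2.24%. In shared distal peaks it was present in 2 of 23, 8.7% against 1.75%. These are counts of at most 2 peaks.

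The same counts for 18 other bZIP genes and for 13 kinases and factors upstream of AP-1 show how these genes compare. Of the 18 other bZIP genes, of which 15 had a start peak in both lists, 9 had at least 1 TGFβ 2 h-only peak. The same was true of 40.5% of all protein-coding genes and of 49.6% of those with a start peak in both lists. At least 1 vehicle-only peak lay near 8 of the 18, where these shares were 25.9% and 31.9%. The TGFβ 2 h peaks outnumbered the vehicle peaks for 8 of the 18, equalled them for 5 and were fewer for 5. Cebpb, a bZIP gene outside AP-1, had the most unshared peaks, 3 TGFβ 2 h-only and 2 vehicle-only. Atf6 (score 693) and Mafk (score 749) each had a further own-start peak that was TGFβ 2 h-only. Further own-start peaks that were vehicle-only included those of Maf (score 687), Mafg (score 658) and Crem (score 758). All the genes named here for a further own-start peak had a start peak in both lists. Atf4 and Atf7 had no start peak in either list.

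Of the 13 upstream kinases and factors, every one had a start peak in both lists, and 4 had a TGFβ 2 h-only peak, a lower share than the 49.6% of such genes. The number of peaks was equal for 9, higher with TGFβ for 3 and lower for 1. Map2k2 had 3 TGFβ 2 h-only and 2 vehicle-only peaks, the most of this list, and Mapk3 had a further start peak in the TGFβ 2 h list only (score 590). The median number of TGFβ 2 h-only peaks was 1.5 for the AP-1 factor genes, 0.5 for the other bZIP genes and 0 for the upstream kinases and factors, and the median number of all TGFβ 2 h peaks ran in the same order, at 6, 4 and 2. Per peak the lists were closer, with 16 of 70 TGFβ 2 h peaks unshared near the AP-1 factor genes (22.9%, Wilson 95% interval 14.6 to 34), 14 of 69 near the other bZIP genes (20.3%, 12.5 to 31.2) and 6 of 46 near the upstream kinases and factors (13.0%, 6.12 to 25.7). These intervals overlap.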

How the data were processed

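Open chromatin was measured by DNaseI-seq in 2 samples of NMuMG cells, grouped by their titles (Veh and TGFb2h), with 1 deposited peak list each. Duplicates are mentioned in the series text and merged reads in the study's data listing, and no replicate lists were analysed here. The authors aligned the reads to mm9, and the submitters' processing notes name MACS2 2.1.2 and deepTools. According to the methods, the DNaseI-seq reads went through the pipeline used for ATAC-seq, with options particular to this assay. Those options, and how the irreproducible discovery rate step of the ATAC-seq data was applied to DNaseI-seq, are not given in the sources used here. The deposited score is the authors' whole number for each peak, from 540 to a ceiling of 1000. It ranks peaks within 1 list, and where both scores of a shared peak are printed they are set side by side as standings in each list, not as a measured change. The other deposited values are interval starts and ends. Read depth is not in the lists, and nothing was scaled by it. Per the reporting summary of the study, the vehicle library was the deeper one.

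The lists hold 70449 vehicle and 68542 TGFβ 2 h rows. Rows that repeated an interval were collapsed to 1 peak, at a mean of 3.77 rows per vehicle and 2.91 per TGFβ 2 h peak near these genes. Coordinates are 1-based. Gene bodies, transcript starts and sequence came from GENCODE mouse release M1 and the NCBIM37 genome, and all 10 genes were matched by symbol. A peak's location in a gene was read at its midpoint. Shares carry Wilson 95% intervals, which cover counting error only. Strings were matched exactly on both strands. The overlap rule and the shared call were tested on shifted vehicle peaks with a random set removed, and on toy intervals. The promoter and nearest-start rules were not tested in this way. Python 3.11.15, pandas 2.3.3, scipy 1.17.1 and pysam 0.24.0 were used.

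The 10 genes, the other gene lists and the markers were chosen with earlier results of these data known. Single peaks were named where they overlapped the gene's own start, were unshared, or held the AP-1 site near the midpoint. Other pairs were picked after their values were seen. Genes of the other lists were named for an unshared start peak or the most unshared peaks, and some results for single genes of the marker and comparison lists are not reported here. Alternatives changed the counting of rows, joining of peaks, score filter, list length, overlap rule, window, assignment to the nearest start, the searched stretch and the set of starts.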

Additional observations from a re-analysis of the deposited data

How the results depend on the processing

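The 10 alternative settings of the peak counts all left the TGFβ 2 h-only peaks near these genes more numerous than the vehicle-only ones, and all but 1 did so for the peaks in total. The exception counted every deposited row, with 211 vehicle and 204 TGFβ 2 h rows, of which 5 were vehicle-only and 35 TGFβ 2 h-only. Of 58 alternative values, 36 stayed within their margin (1.5 times for a count, the Wilson interval for the share) and 22 moved by more. A second order that turned was that of the TGFβ 2 h-only share, at 22.9% near these genes and 33.7% over the list in the main setting and 27.9% and 25.2% with peaks at or above the median score. With peaks at or above the median score there were 34 vehicle and 43 TGFβ 2 h peaks. A window of 25 kb held 37 vehicle and 45 TGFβ 2 h peaks, 1 vehicle-only and 9 TGFβ 2 h-only, the latter near 5 genes. A window of 100 kb held 91 vehicle and 110 TGFβ 2 h peaks with 6 vehicle-only. Only peaks nearest to the start of a listed gene left 23 vehicle and 28 TGFβ 2 h peaks, 0 vehicle-only and 5 TGFβ 2 h-only, near 4 genes. Vehicle-only peaks numbered 6 with the longer list cut to the length of the shorter, and 6 with a reciprocal overlap of 50%. The AP-1 site was in 7 distal TGFβ 2 h-only peaks when the whole peak was searched, and the order of its share against the list turned too. The share of TGFβ 2 h-only peaks ran from 17.2% to 28.6%. No paired analysis was possible because a single list stood for each condition, with no replicate numbers to pair.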

Other observations

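Only 5 of the 16 TGFβ 2 h-only peaks lay nearer to the start of a listed gene than to any other protein-coding start. These were the Fos peak 23.8 kb upstream, the Junb peak 2.5 kb upstream, the Batf peak in its own intron, and the Batf3 peaks at its start and 27.6 kb downstream. The 2 peaks at the score ceiling, near Junb and Jund, were not among them.

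The length of sequence covered by peaks followed the number of peaks at some of the genes with more TGFβ 2 h than vehicle peaks, and not at others. Fosb had 15 TGFβ 2 h peaks over 8126 bp and 13 vehicle peaks over 8973 bp, and Fosl1 had 13 over 7776 bp and 12 over 8979 bp. Junb covered 6187 bp with TGFβ and 6487 bp with vehicle, and Atf3 3144 bp and 3807 bp. The covered length was greater with TGFβ at Fos (4371 bp against 3714 bp), Fosl2 (3340 against 2381 bp), Jund (5915 against 5472 bp) and Batf3 (3335 against 1403 bp).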
